A study of Mus musculus with 101 samples.

Results

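Meiotic prophase and synaptonemal complex genes are described here in XX and XY germ cells of E13.5 mouse embryos whose F0 ancestor was fed benzo[a]pyrene (BaP) or oil. The genes were chosen by name, with earlier results of these data known, as a working list of 35, most of which act in meiotic prophase. Ccnb3, which the study places at the onset of anaphase I, and Shcbp1l stand outside the roles described below. All 35 were found among the 15423 genes of the table, 31 under their current symbol and 4 under an older one (Rec114, Terb1, Terb2 and Majin).

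As background, meiotic prophase is the stage at which a germ cell breaks its own DNA, pairs homologous chromosomes and repairs the breaks by recombination. Cohesin and axis proteins first organise each chromosome, a zipper-like synaptonemal complex then joins the homologs, and telomeres tethered to the nuclear envelope help them find each other. In the mouse, XX germ cells enter this stage in the fetal ovary around E13.5, after Stra8 is induced, whereas XY germ cells of the same age arrest in mitosis and enter meiosis only after birth.

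The study asked whether exposure of a pregnant dam alters the germ cells of her offspring and of later generations. Pregnant F0 dams of the OG2 strain were fed sesame oil alone (vehicle) or oil carrying BaP, at 0.033 mg/kg-day, at 0.2 or at 2, over E6.5 to E11.5 where F1 embryos were collected and over E6.5 to E15.5 for the lineages that gave F2 and F3 embryos. Germ cells were sorted from each E13.5 gonad for EGFP, and RNA-seq was made from each embryo separately. The table holds embryos of 56 dams, 48 female and 53 male by the look of the gonad.

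OG2 mice, here with F0 parents homozygous for the transgene on a C57BL/6J background, carry EGFP under the Pou5f1 promoter and distal enhancer. Germ cells in XX gonads lower Pou5f1 as they enter meiosis, so the gate itself depends on a gene that changes at this stage. F2 and F3 embryos descended from exposed F0 dams through matings of mice that were not littermates within each dose group, and were not dosed themselves after the F0 pregnancy. Vehicle groups held 5 females and 5 males in F1, and 6 of each in F2 and in F3. F1 exposed groups held 2 females and 2 males at 0.033 mg/kg-day, 5 and 6 at 0.2, and 5 and 8 at 2. F2 exposed groups held 3 of each sex at each dose. F3 exposed groups held 4 females and 4 males at 0.033, 2 and 4 at 0.2, and 4 and 3 at 2.

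Values are normalized counts, that is reads divided by the TMM-scaled library size of the embryo and scaled to a common total. Reads counted in the genes of the table, which are fewer than the reads sequenced or mapped, could be recovered for 99 embryos. Their sums ranged from 5004382 to 87240533 with a median of 7789673, so that 1 read is worth between 0.00959 and 0.238 and a median of 0.124. Members at values near 1 therefore rest on few reads in most embryos.

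Some libraries stood apart before any comparison. In F1, 11 libraries held over 20000000 such reads: vehicle female C4232.9, females C4228.3 and C4242.1 at 0.2 mg/kg-day, females C4219.4 and C4258.2 at 2 mg/kg-day, vehicle males C3774.3 and C4232.2, male C4228.1 at 0.2, and males C4219.1, C4219.2 and C4258.5 at 2. C4232.9 had the highest value of the 5 vehicle F1 females in 26 of 35 members, against 34.7% of all genes tested. Over all genes, 48 of 48 females and 52 of 53 males lay nearer to the vehicle mean of their own sex. The exception, male D1390.5 of the F3 0.2 mg/kg-day group, was a near tie, with r at 0.9678 to the female mean and 0.9676 to the male mean. It had Stra8 at 14.7 and Nanos2 at 0, both outside the F3 vehicle males (Stra8 from 0.585 to 4.69, Nanos2 from 0.472 to 9.14). In the other generations vehicle male C4232.2 had Stra8 at 14.1, and the lowest F1 and F2 vehicle males had Nanos2 at 0. D1390.5 lay below the highest vehicle male in 34 of 35 members. Female D3501.3, low in Stra8, did so in 33, so this count does not separate D1390.5 from such females. Limma counts over all members in the F1 comparisons with vehicle are given with and without the deep libraries. Counts by edgeR, over subsets of the members and over other genes of meiosis are given with them only.

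Germ cell genes were read first in vehicle embryos. Stra8, the inducer of meiotic entry, averaged 416 in 17 vehicle females and 2.72 in 17 vehicle males (log2 difference 7.40 ± 0.44, limma adjusted p = 1.85e-28, every female above every male, 17 of 17). Nanos2, a determinant of male germ cell fate, averaged 0.0307 and 2.52 (log2 difference -1.78 ± 0.35, limma adjusted p = 7.65e-06, 17 of 17 females below the male median). The general germ cell genes Ddx4 and Dazl averaged 505 and 1375 in females and 375 and 978 in males, and passed as higher in females (log2 differences 0.48 ± 0.15 and 0.52 ± 0.12, limma adjusted p = 0.00469 and 0.000174, 14 and 16 of 17 females above the male median). Pou5f1, which drives the reporter, averaged 57.7 in females and 96.8 in males (log2 difference -0.80 ± 0.23, limma adjusted p = 0.00222, 16 of 17 females below the male median). Mael, a piRNA pathway gene, averaged 221 and 108 and also passed (log2 difference 1.07 ± 0.19, limma adjusted p = 8.66e-07, 17 of 17 above the male median). Ddx4 and Dazl were thus abundant in both sexes and higher in females, as most members were, and Stra8 set apart the sexes of vehicle embryos. It did not do so among all embryos, since exposed females D3501.3 (9.12) and E0103.2 (11.4) had less Stra8 than males C4232.2 (14.1) and D1390.5 (14.7), and the sex labels used are those given from the gonad.

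Markers of other gonadal cells were summed for each embryo. The Sertoli list, 5 of 5 genes present, had a median sum of 0.531 in vehicle females and 505.9 in vehicle males, where Cst9 was the most abundant gene. Endothelial genes, 4 of 5 present, summed to medians of 33.6 and 25.9 in vehicle females and males, nearly all of it Pecam1 (means 32.8 and 23.6). These sums thus rest on 1 gene and do not show endothelial cells by themselves. Macrophage genes, 6 of 6 with C1qb most abundant, summed to 13.2 and 7.98. Pregranulosa genes, 5 of 6 present, summed to medians of 4.61 in females (Wnt4 most abundant) and 2.96 in males (Rspo1). Fetal Leydig genes, 5 of 5, summed to 3.14 (Insl3 most abundant) and 5.72 (Hsd3b1), and stromal genes, 6 of 6 with Dcn most abundant, to 1.24 and 2.31. Erythroid genes, 5 of 6 with Hba-a1 most abundant, had medians of 0.701 and 1.13 but reached 126 in a female and 2995.8 in a male. The part of these other cells in the sex differences below was not tested, and in bulk samples fewer cells of a type and less RNA per cell cannot be told apart.

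In vehicle embryos of all generations, 27 of the 34 members tested were higher in females and 1 was lower by limma at an adjusted p under 0.05, against 28.6% of all 13288 genes tested that were higher and 27.9% that were lower. By edgeR's quasi-likelihood test the members' counts were 26 and 2. Rad21l was not tested because its mean lay under 0.5. Of the members, 19 were over 2-fold higher against 8.1% of all genes, and 0 were over 2-fold lower by limma and by edgeR against 7.91% (2 members were lower at an unadjusted p under 0.05 by limma). The median log2 difference was 1.16 over the members and -0.00193 over all genes tested. The members named by the study as lower after exposure (Meiob, Syce1, Syce3, Sycp2, Sycp3, Tex11, Tex12, Tex15 and Ccnb3) gave 7 higher of 9, and the other members 20 higher and 1 lower of 25.

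**Figure D1:**
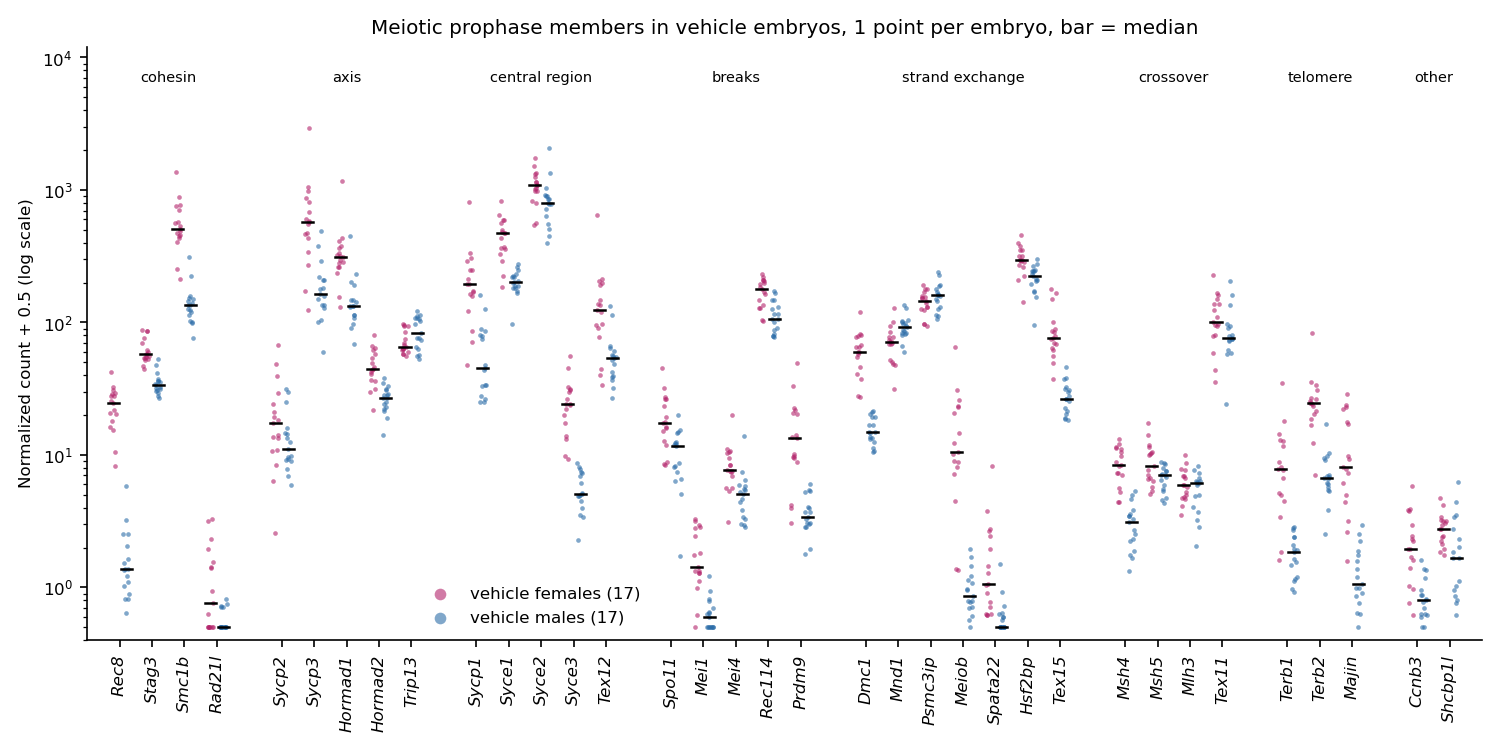
Normalized count plus 0.5 (log scale) of the 35 members in 17 vehicle females and 17 vehicle males of all generations, grouped by role, with 1 point per embryo and a bar at the median. Females lay above males without any overlap for Rec8, Syce3 and Dmc1, and Mnd1, Psmc3ip and Trip13 had higher averages in males.

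Cohesin subunits made for meiosis hold sister chromatids and anchor the chromosome axis, and 3 of 3 tested were higher in females. Rec8, the meiotic kleisin, had lowest, median and highest values of 7.72, 24.2 and 41.8 in females and 0.146, 0.872 and 5.36 in males. Every female therefore lay above every male for Rec8 (log2 difference 3.88 ± 0.28, limma adjusted p = 2.34e-23, 17 of 17 females), the largest log2 difference of any member at this offset of 0.5. As a ratio of mean values Meiob was larger, at 32.6 against 18.2 for Rec8. Smc1b, the meiotic partner of Smc3, stood at 212, 507 and 1366 in females and 75.4, 135 and 309 in males, and 15 of 17 females were above every male (log2 difference 1.97 ± 0.20). Stag3 ranged from 43.8 to 87.6 in females and from 26.5 to 52.7 in males (log2 difference 0.82 ± 0.11). Rad21l, the other meiotic kleisin, was at 0 in 7 of 17 females and 12 of 17 males and reached 2.81 in a female.

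Axis proteins form the lateral elements, and 3 of 5 members were higher in females. Sycp3, a core component of the lateral element, had lowest, median and highest values of 123, 577 and 2954 in females and 58.98, 163 and 489 in males. Its groups overlapped, with 10 of 17 females above every male (log2 difference 1.66 ± 0.30, limma adjusted p = 1.63e-06, 16 of 17 above the male median). Sycp2, its partner, stood at 2.08, 16.99 and 67.2 in females and 5.45, 10.5 and 31.2 in males and did not pass the test (log2 difference 0.42 ± 0.33, limma adjusted p = 0.274, 12 of 17 above the male median). With dam as a fixed term, Sycp2 passed in females over males (limma adjusted p = 0.00195, log2 difference 0.52). The HORMA domain proteins Hormad1 and Hormad2, which mark unsynapsed axes, differed by 1.15 ± 0.20 and 0.79 ± 0.13 on the log2 scale. Trip13, the ATPase that removes them, stood at 55.2, 64.4 and 96.98 in females and 52.7, 82.8 and 122 in males (log2 difference -0.24 ± 0.12, limma adjusted p = 0.0763, 12 of 17 females below the male median). Trip13 passed as lower in females by edgeR's quasi-likelihood test (adjusted p = 0.0284, log2 difference -0.30), by its likelihood ratio test (0.0273), with upper quartile scaling (limma adjusted p = 0.0341) and with dam as a random effect (limma adjusted p = 0.0361).

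The central region of the complex links the paired axes, and 4 of 5 members were higher in females. Syce3, a central element protein, stood at 8.84, 23.6 and 55.3 in females and 1.78, 4.57 and 8.26 in males, with no overlap (log2 difference 2.10 ± 0.24, limma adjusted p = 4.85e-13, 17 of 17 females). Tex12, which binds Syce2, stood at 33.1, 123 and 648 and 26.6, 53.5 and 132 (log2 difference 1.16 ± 0.29, limma adjusted p = 0.000427, 14 of 17 above the male median). Syce1 stood at 185, 472 and 828 and 97.2, 203 and 275 (log2 difference 1.09 ± 0.15), with 15 of 17 females above every male. Sycp1, the transverse filament that spans the central region, ranged from 47.2 to 810.1 in females and from 24.4 to 159 in males (log2 difference 1.84 ± 0.31). Syce2, by contrast, was abundant in both sexes, at 545, 1081 and 1731 in females and 395, 799.8 and 2081 in males, and 0 of 17 females lay above every male. Its log2 difference of 0.40 ± 0.18 had a limma adjusted p of 0.0534, with 14 of 17 females above the male median, and between 0.00751 and 0.0397 in the 5 alternatives where it passed, the lowest of them with dam as a fixed term and 0.0138 with dam as a random effect.

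Genes for making DNA breaks were higher in females in 5 of 5 cases. Rec114, part of the machinery that activates the break-making enzyme, stood at 102.8, 179 and 232 in females and 77.6, 106 and 173 in males (log2 difference 0.60 ± 0.11, limma adjusted p = 3.26e-06, 15 of 17 females above the male median). Prdm9, the histone methyltransferase that marks hotspots, stood at 2.57, 12.9 and 49.2 and 1.30, 2.92 and 5.50 (log2 difference 1.82 ± 0.31), and 14 of 17 females lay above every male. Spo11, which cuts the DNA, differed by 0.93 ± 0.24 and Mei4 by 0.72 ± 0.20 on the log2 scale. Mei1 was the scarcest of them, with values of 0, 0.929 and 2.76 in females and 0, 0.0945 and 0.715 in males and 8 males at 0 (log2 difference 1.36 ± 0.24).

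Strand exchange genes split, with 5 of 7 higher in females and 1 lower. Dmc1, the meiotic recombinase, stood at 26.8, 59.4 and 119 in females and 10.03, 14.4 and 20.95 in males without overlap (log2 difference 1.92 ± 0.17, limma adjusted p = 4.56e-18, 17 of 17 females). Meiob, a single-strand DNA binding protein, stood at 0.858, 10.1 and 64.7 and 0, 0.369 and 1.44, so that males held few reads of it, a median of 3 (log2 difference 3.57 ± 0.41, 15 of 17 females above every male). Its partner Spata22 was scarce, at 0.123, 0.555 and 7.80 in females and 0, 0 and 1.01 in males, with 9 males at 0. Hsf2bp, which binds BRCA2, stood at 143, 295 and 458 and 95.4, 225 and 303 (log2 difference 0.47 ± 0.14), and Tex15, needed for recombination and for transposon silencing, at 36.8, 76.1 and 177 and 17.8, 25.9 and 45.9 (log2 difference 1.59 ± 0.20).

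The Mnd1 and Psmc3ip proteins form a pair that helps Dmc1 invade the homolog, yet neither was higher in females. Mnd1 stood at 31.1, 70.8 and 128 in females and 59.3, 91.5 and 135 in males, and was the member that passed as lower (log2 difference -0.42 ± 0.14, limma adjusted p = 0.00839, 14 of 17 females below the male median). Psmc3ip stood at 94.1, 144 and 193 and 105, 160.4 and 238 (log2 difference -0.16 ± 0.11, limma adjusted p = 0.202, 13 of 17 females below the male median). Trip13, Mnd1 and Psmc3ip were thus the 3 members with higher averages in males.

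Crossover genes differed least, with 2 of 4 higher in females. Tex11, an X-linked gene, stood at 35.3, 99.8 and 229 in females and 23.6, 75.3 and 205 in males (log2 difference 0.32 ± 0.23, limma adjusted p = 0.240, 14 of 17 above the male median). Msh4, part of a clamp with Msh5 that stabilises crossover intermediates, stood at 3.88, 7.96 and 12.7 and 0.8286, 2.65 and 4.81 (log2 difference 1.52 ± 0.21). Msh5 differed by 0.38 ± 0.16 (limma adjusted p = 0.0329, 11 of 17 females above the male median), which did not pass with upper quartile scaling (limma adjusted p = 0.0551) or without the deep F1 libraries (0.0599). Mlh3, of the complex that resolves crossovers, stood at 3.05, 5.39 and 9.41 and 1.56, 5.62 and 7.75, nearly the same range (log2 difference 0.20 ± 0.19, limma adjusted p = 0.376, 7 of 17 above the male median).

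Terb1, Terb2 and Majin tie telomeres to the nuclear envelope, and 3 of 3 were higher in females. Terb2 stood at 6.57, 24.03 and 82.9 in females and 2.03, 6.25 and 16.7 in males (log2 difference 1.80 ± 0.25), with 14 of 17 females above every male. Majin, the membrane anchor, stood at 1.07, 7.64 and 28.2 and 0, 0.567 and 2.46 (log2 difference 2.86 ± 0.35, limma adjusted p = 8.20e-12, 15 of 17 females above every male). Terb1 stood at 1.11, 7.37 and 34.7 and 0.427, 1.34 and 2.38 (log2 difference 2.11 ± 0.33). The remaining members were scarce: Ccnb3, a cyclin, stood at 0.123, 1.44 and 5.29 in females and 0, 0.303 and 1.12 in males (log2 difference 1.25 ± 0.25). Shcbp1l stood at 1.25, 2.28 and 4.21 and 0.118, 1.17 and 5.70 (log2 difference 0.69 ± 0.23, limma adjusted p = 0.00898, 17 of 17 females above the male median), which did not pass by edgeR's quasi-likelihood test (adjusted p = 0.177) or likelihood ratio test (0.162).

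Without overlap between the sexes, 3 members had every vehicle female above every vehicle male (Rec8, Syce3 and Dmc1) against 2.24% of all genes tested, and 0 had every female below every male against 2.21%. The median coefficient of variation among vehicle embryos was 46.0% in females and 46.1% in males over the members, and 28.7% and 35.3% over all genes tested. The members were thus more variable between embryos of 1 sex than the genes of the table as a whole.

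Divided by exon length in kilobases, mean levels in vehicle females ran from Sycp3 at 555 and Syce2 at 549.5 per kb to Mei1 at 0.279 per kb. Below the leading pair came Syce1 at 310.1, Hormad1 at 203, Tex12 at 150.2, Smc1b at 143 and Rec114 at 134 per kb. Sycp3 and Syce2 did not differ beyond their spread, with standard deviations of 637 and 307 around means of 702 and 1082 before division by length. In vehicle males the per kb order began with Syce2 at 434, Sycp3 at 153, Syce1 at 139 and Mnd1 at 106, while Rec8 stood at 0.431 against 7.86 in females. Structural genes of the complex thus led in both sexes.

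Some member values are uncertain because exons are shared with other genes and the libraries did not mark strand. Exons of Sycp3 share 660 bases with Chpt1 on the opposite strand, those of Psmc3ip 385 with Mlx, those of Rec114 344 with Nptn, those of Msh4 125 with Gm24395 and those of Hsf2bp 54 with Rrp1b. Spata22 shares 1025 bases with Gm49340 on its own strand, which strand information would not resolve. Reads in these stretches cannot be assigned to either gene from the table.

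By generation, limma called 20 of 34 members higher and 0 lower in F1 vehicle females over males, with 0 lower at an unadjusted p under 0.05 and 21 higher and 0 lower by edgeR's quasi-likelihood test, against 12.8% and 11% of 13635 genes. Without the deep libraries 16 of 33 members tested were higher. In F2, 24 were higher and 0 lower, with 0 lower at an unadjusted p under 0.05 by limma and 24 and 0 by edgeR, against 20.4% and 20.7% of 13083 genes. In F3, 18 were higher and 1 lower (Mnd1) against 15.8% and 16.4% of 13139 genes, with 17 and 1 by edgeR. Rec8 differed by 3.52 ± 0.49 in F1, 4.24 ± 0.31 in F2 and 3.83 ± 0.53 in F3 on the log2 scale. Dmc1 differed by 2.06 ± 0.28, 1.73 ± 0.21 and 2.01 ± 0.31, and Sycp3 by 1.68 ± 0.54, 1.96 ± 0.39 and 1.34 ± 0.44. Mnd1 in F3 averaged 60.6 in females and 91.6 in males (log2 difference -0.59 ± 0.20, limma adjusted p = 0.0252, 6 of 6 females below the male median). The F3 count of lower members was 0 without female D1344.3, D3526.1 or D3612.1 or male D3402.3, and the F2 count was 1 without female C4992.1 or male D3001.1.

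Tested directly, the size of the vehicle sex difference did not pass as different between generations in any member. Limma called 0 members, with 0 at an unadjusted p under 0.05, for F1 against F2, F1 against F3 and F2 against F3, and edgeR's quasi-likelihood test called 0. Of all genes tested, 0% were called and 1.45%, 1.9% and 0.956% had an unadjusted p under 0.05 in these comparisons. For F1 minus F2, 17 of 34 members had a positive difference (median -0.00243, against 0.0277 over all genes). For F1 minus F3, 29 did (median 0.316 against 0.0332), and for F2 minus F3, 31 did (0.198 against 0.000835).

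Vehicle females of 1 age and group differed widely among themselves, and members were low where Stra8 was low. In each generation the vehicle female with the lowest Stra8 had the lowest value of its group in 28 of 35 members: C4605.2 in F1 (Stra8 at 112), D3133.2 in F2 (93.0) and D3526.1 in F3 (62.9). Of all genes tested 25.2%, 30.3% and 27.1% were lowest in these embryos. The other vehicle females had Stra8 between 273 (C4992.1, F2) and 743 (C4232.9, F1). For Meiob, D3526.1 had 0.858 and D3133.2 had 0.867, within the range of vehicle males, which reached 1.44. Each vehicle group thus held 1 female with Stra8 well below the others and low members. Exposed F3 females D3501.3 (Stra8 at 9.12), E0103.2 (11.4), D3744.1 (29.2), D4021.1 (35.7) and D1464.1 (40.7) had less Stra8 than D3526.1. The other exposed F3 females had 309 or more. Whether such females are more frequent after exposure was not tested.

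In F1 females at 2 mg/kg-day, 31 of 34 members had lower averages on the log scale than in vehicle females, with a median log2 difference of -0.61 against -0.02 over all genes tested. None passed the test: limma called 0 members, with 13 at an unadjusted p under 0.05, all lower, and edgeR's quasi-likelihood test called 0, with 17 lower at an unadjusted p under 0.05. Of all 13635 genes, 0.00733% were called, 9.89% had an unadjusted p under 0.05 and 5.76% had one and were lower. The study had named 9 members as lower in this group from these same samples, so their 6 of 9 at an unadjusted p under 0.05 is not independent evidence of direction. Of the other members, 7 of 25 were lower at an unadjusted p under 0.05 by limma and 10 by edgeR.

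Members of the telomere, cohesin and strand exchange roles were among those below vehicle in F1 females at 2 mg/kg-day. Majin had values of 1.07, 5.69, 7.64, 21.8 and 28.2 in the 5 vehicle females and 1.01, 1.17, 1.43, 1.97 and 5.58 in the 5 exposed females (log2 difference -1.89 ± 0.56, limma adjusted p = 0.343, 5 of 5 below the vehicle median). Smc1b had 402, 431, 507, 885 and 1366 in vehicle and 239, 319, 344, 428 and 477 in exposed females (log2 difference -0.86 ± 0.29, limma adjusted p = 0.374, 5 of 5). For Smc1b, 3 of 5 exposed females lay below every vehicle female, and for Majin 1 did. Dmc1 had 40.1, 45.4, 58.9, 80.6 and 119 and 27.9, 31.7, 33.5, 35.4 and 50.5, so that 4 of 5 lay below every vehicle female (log2 difference -0.85 ± 0.28, limma adjusted p = 0.374). Rec8 had 10.05, 15.6, 20.1, 27.2 and 41.8 and 4.28, 5.77, 9.28, 14.03 and 26.1 (log2 difference -1.04 ± 0.49), where the exposed range ran from below to within the vehicle range.

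The members that the study had named, described next, overlapped between F1 groups. Meiob had values of 4.02, 6.66, 11.8, 22.8 and 64.7 in vehicle and 0.713, 1.26, 4.55, 8.37 and 8.84 in 2 mg/kg-day females (log2 difference -1.88 ± 0.66, limma adjusted p = 0.383, 5 of 5 below the vehicle median). Syce1 had 289, 373, 431, 595 and 828 and 213, 242, 275, 426 and 429 (log2 difference -0.63 ± 0.23). Syce3 had 8.84, 21.8, 23.6, 23.9 and 31.8 and 6.59, 10.4, 13.2, 22.3 and 28.7 (log2 difference -0.50 ± 0.44). For Syce1 3 of 5 exposed females lay below every vehicle female, and for Syce3 1 of 5. Sycp2 had 7.90, 10.4, 17.9, 48.5 and 67.2 and 6.42, 7.28, 7.38, 9.23 and 17.1 (log2 difference -1.25 ± 0.51). Sycp3 had 340.2, 465, 577, 864 and 2954 and 303, 503, 519, 727 and 1088 (log2 difference -0.38 ± 0.54). The lateral element genes were both highest in the deep vehicle library C4232.9. Tex11 had 58.7, 78.7, 109, 166 and 229 and 28.3, 40.5, 72.3, 72.5 and 81.9 (log2 difference -1.05 ± 0.39), and Tex15 had 48.7, 61.2, 84.3, 167 and 177 and 36.7, 44.9, 51.98, 55.2 and 63.5 (log2 difference -0.92 ± 0.34). Tex12 had 43.8, 95.5, 119.7, 191 and 648 and 50.1, 91.3, 94.1, 116 and 129 (log2 difference -0.65 ± 0.51), with 0 of 5 exposed females below every vehicle female. Ccnb3 had 0.268, 0.899, 1.94, 3.42 and 5.29 and 0.238, 0.303, 0.304, 1.19 and 2.04 (log2 difference -0.97 ± 0.43), the scarcest of the 9.

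Which libraries entered changed the F1 counts at 2 mg/kg-day. Without the deep libraries, 3 of 33 members were lower at an unadjusted p under 0.05 in place of 13, against 2.72% of all genes, the median log2 difference was -0.45, and 27 had a negative difference. Depth class as a term was a fit chosen after the data were seen. There 17 of 34 members were lower, against 7.44% of all genes, and the median was -0.73. Without vehicle female C4232.9 the count was 6, against 4.23% of all genes, and without vehicle female C4321.6 it was 8, against 3.27%. Without the low-Stra8 vehicle female C4605.2 it was 18, against 6.26%, and Majin passed (limma adjusted p = 0.0403, log2 difference -2.51). Upper quartile scaling moved the median of all genes by 0.11 (log2) in this comparison.

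Stra8 itself was at 112, 313, 450.4, 617 and 743 in F1 vehicle females and 63.7, 71.2, 112, 153 and 334 in F1 females at 2 mg/kg-day (log2 difference -1.62 ± 0.64, limma adjusted p = 0.434, 5 of 5 below the vehicle median). D2587.1, the exposed female with the highest Stra8, was also the highest of its group in 19 of 35 members, against 17.2% of all genes, and below every vehicle female in 1, against 13.5%. D2582.1 was below every vehicle female in 17 of 35 members against 29.9% of all genes, C4219.4 in 14 against 25.1%, D1824.1 in 12 against 18.6% and C4258.2 in 6 against 23.5%. All genes were thus often beyond vehicle in these embryos too. Ddx4 averaged 527 in vehicle and 330.2 in exposed females (log2 difference -0.74 ± 0.30, limma adjusted p = 0.453, 5 of 5 below the vehicle median). Dazl differed by -0.41 ± 0.24, with 5 of 5 exposed females below every vehicle female, Mael by -0.63 ± 0.36 and Pou5f1, of the reporter, by 0.30 ± 0.53. Erythroid genes (5 of 6, Hba-a1 most abundant) summed to at most 1.98 in vehicle females and to 950.0 in the highest of the exposed females. Endothelial sums, again mostly Pecam1, had medians of 37.4 and 37.3. Stromal genes (6 of 6) summed to a median of 0.629 in vehicle females (from 0.324 to 1.88) and 3.19 in the exposed (from 1.66 to 6.52, Pdgfra most abundant), and to 4.29 (from 2.11 to 7.22) in F1 females at 0.2 mg/kg-day, where the members' median difference was positive. The part of these in the members' values was not tested.

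At the lower doses most members had higher averages in F1 females than in vehicle females, 26 of 34 at 0.033 and 27 at 0.2 mg/kg-day, and none passed. Limma called 0 members at 0.033 and 0 at 0.2 mg/kg-day, with 0 at an unadjusted p under 0.05 in each, as by edgeR's quasi-likelihood test. Of all genes, 0% were called and 0.183% and 0.902% had an unadjusted p under 0.05. The median log2 difference of the members was 0.15 and 0.27 with the deep libraries and 0.40 and 0.14 without them, so the order of the doses reversed. Without them 2 of 33 members had a negative difference at 0.033 and 10 at 0.2 mg/kg-day. In those fits 0 members were called and 0 had an unadjusted p under 0.05 by limma. At 0.2 mg/kg-day the deep libraries C4228.3 and C4242.1 held the highest values of Meiob, 105 and 42.6, where the other females of the group had 10.9, 10.99 and 13.2.

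**Figure D2:**
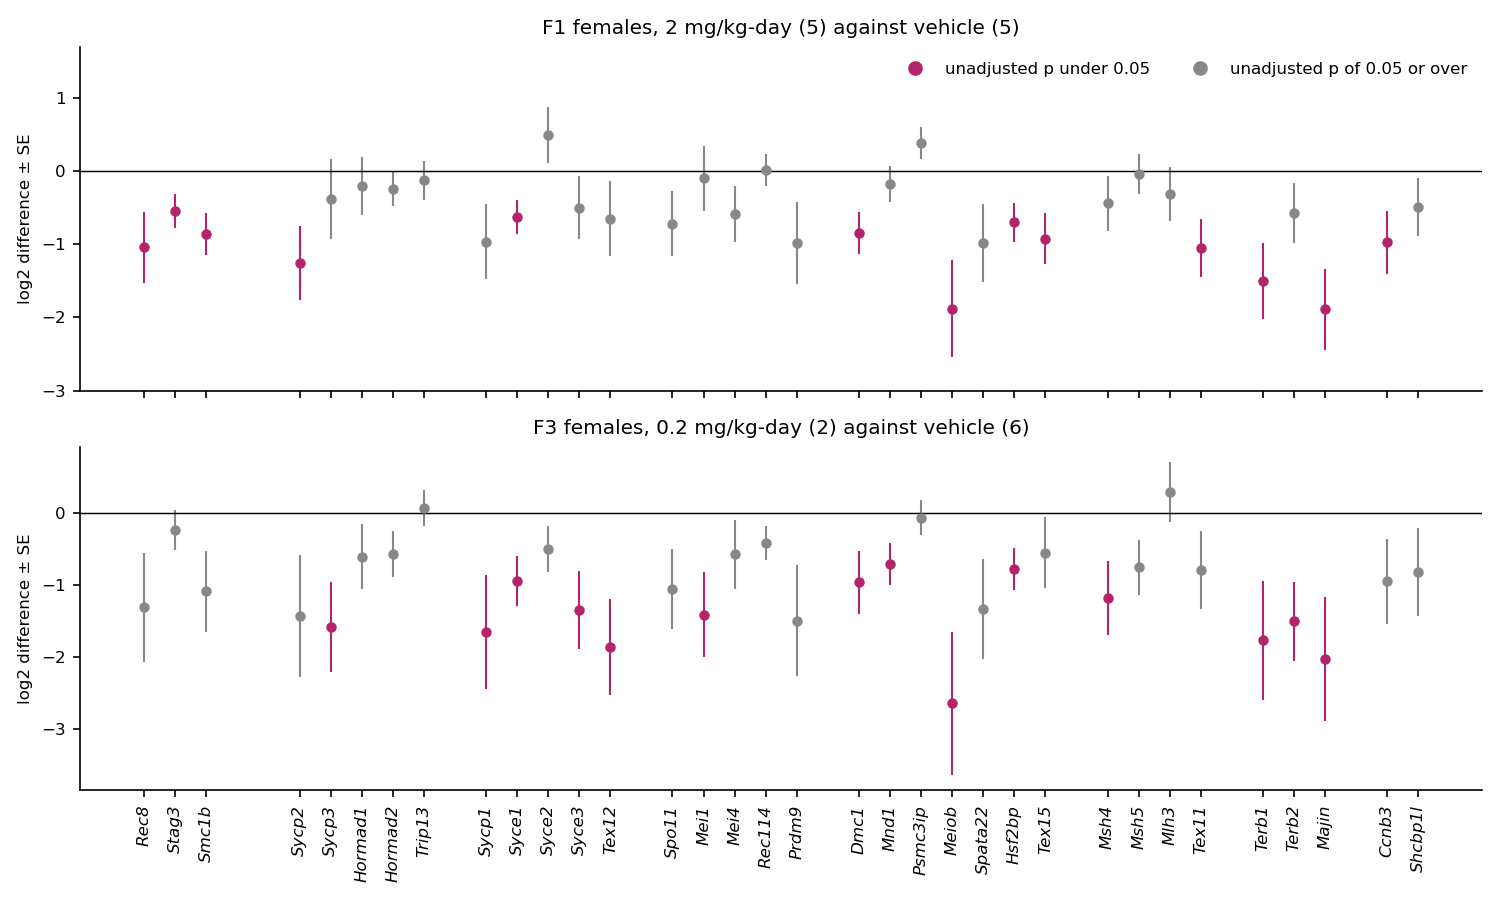
Log2 difference from vehicle females with its standard error (limma) for the 34 members tested in F1 females at 2 mg/kg-day (5 against 5 embryos) and F3 females at 0.2 mg/kg-day (2 against 6 embryos), in the order of roles used above. Coloured points have an unadjusted p under 0.05 (13 and 14 members), and no point passed at an adjusted p under 0.05.

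In F3 females at 0.2 mg/kg-day, a group of 2 embryos, 32 of 34 members had lower averages on the log scale than in the 6 vehicle females, with a median log2 difference of -0.96 against 0.01 over all genes. Limma called 0 members, with 14 at an unadjusted p under 0.05, all lower, and edgeR's quasi-likelihood test called 0, with 13 lower at an unadjusted p under 0.05. Of all 13139 genes, 0% were called, 12.8% had an unadjusted p under 0.05 and 6.48% had one and were lower. The 9 members the study named from these samples gave 5 lower at an unadjusted p under 0.05, which is not independent evidence, and the others 9 of 25. Both exposed embryos, D1464.1 and D4021.1, lay below the vehicle median in 34 and 32 of 35 members, against 49.98% and 47.8% of all genes.

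In the F3 group at 0.2 mg/kg-day, D1464.1 lay below every vehicle female, the low-Stra8 D3526.1 included, in 14 of 35 members against 15.6% of all genes tested, and D4021.1 in 17 against 20.6%. Meiob had lowest, median and highest values of 0.858, 8.45 and 30.5 in vehicle females and 0.986 and 1.06 in the exposed (log2 difference -2.64 ± 0.99, limma adjusted p = 0.342, 2 of 2 below the vehicle median). The lowest vehicle value of Meiob, in D3526.1, was below both. Tex12 had 25.7 and 31.8 in the exposed and 39.3 in the lowest vehicle female, so both lay below every vehicle female (log2 difference -1.86 ± 0.67, limma adjusted p = 0.337, 2 of 2). Sycp3 had 94.9 and 219.6 against vehicle values from 173 to 974 (log2 difference -1.58 ± 0.63). Syce3 had 6.90 and 8.85 against 12.6 to 45.04 (log2 difference -1.35 ± 0.54), again with both embryos below every vehicle female.

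Other members in that F3 comparison varied. Syce1 had 187 and 229 (log2 difference -0.94 ± 0.35), Sycp2 4.24 and 5.02 (-1.43 ± 0.84) and Tex11 53.5 and 63.8 (-0.79 ± 0.54) in the exposed embryos. Tex15 had 42.8 and 52.2 (-0.55 ± 0.49), Ccnb3 0.394 and 0.396 (-0.95 ± 0.59), Terb2 6.70 and 7.53 (-1.50 ± 0.55) and Majin 1.68 and 1.85 (-2.02 ± 0.86). For Sycp2, Tex11, Tex15 and Ccnb3, 0 of 2 exposed embryos lay below every vehicle female, while for Terb2 and Majin both did. The cohesin gene Stag3 and the strand exchange gene Psmc3ip differed little, by -0.25 ± 0.28 and -0.07 ± 0.24, as did Trip13 by 0.07 ± 0.25.

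The F3 count of 14 lower members at an unadjusted p under 0.05 was 23 without the low-Stra8 vehicle female D3526.1. There 8.55% of all genes were lower, against 6.48% with it. The count was 10 without vehicle female D1388.3 or D3651.2, against 5.11% and 4.5% of all genes. Leaving out an exposed female leaves 1 embryo, so no count is given. Without exposed female D1464.1 or D4021.1 the median log2 difference was -0.97 or -0.96, as against -0.96 with both. In each case 31 of 34 members were negative, so the members' median differed little while the group shrank to 1 embryo. Stra8 was at 35.7 and 40.7 in the exposed and between 62.9 and 620.1 in the vehicle females (log2 difference -3.11 ± 1.23, limma adjusted p = 0.349, 2 of 2 below every vehicle female). Ddx4 averaged 482 in the exposed and 551 in vehicle females, Dazl 1058 and 1346, and Mael 116 and 230.4, whereas Pou5f1 averaged 91.6 and 58.3, none passing by limma. Endothelial genes (4 of 5, 2 of them at 0 in both exposed embryos) summed to 49.5 and 82.9 in the exposed females against 23.03 to 46.4 in vehicle females. Nearly all of the exposed sums was Pecam1, at 47.8 and 81.7, so they rest on 1 gene and do not show endothelial cells by themselves. The part of other cells in the members' values was not tested.

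The other F3 females showed how much single embryos weigh. At 0.033 mg/kg-day, D3501.3 (Stra8 at 9.12) and D3744.1 (29.2) each lay below every F3 vehicle female in 19 of 35 members, against 19.5% and 17.4% of all genes. D2549.1 (882), by contrast, lay above every vehicle female in 31 members, against 22.4% of all genes. Rec8 in these 4 females was at 3.37, 8.06, 23.3 and 37.1 and Meiob at 0.636, 1.25, 18.9 and 74.96, so the group spanned the whole vehicle range and beyond it at both ends. Limma called 0 members there, with 0 at an unadjusted p under 0.05, as did edgeR's quasi-likelihood test, against 0% of all genes called and 4.01% with an unadjusted p under 0.05. Macrophage genes (6 of 6, C1qb most abundant) summed to a median of 30.3 in this group and 5.65 in F3 vehicle females. Stromal genes (6 of 6, Dcn most abundant) had medians of 5.23 and 1.01, reaching 53.8 and 22.6, and pregranulosa genes (5 of 6) had medians of 7.48 and 4.86, reaching 30.01 and 6.79. The part of these was not tested.

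At 2 mg/kg-day, the F3 female E0103.2 (Stra8 at 11.4) had the lowest value of its group of 4 in 28 of 35 members, against 33.3% of all genes, and lay below every vehicle female in 18, against 27.8%. D2204.1 (Stra8 at 517) went the other way, highest of the group in 30 members, against 26.5% of all genes. It lay above every vehicle female in 14, against 20.8%. Rec8 was at 1.13, 16.8, 18.3 and 23.1 in this group. Limma called 0 members, with 3 higher and 2 lower at an unadjusted p under 0.05, and edgeR's quasi-likelihood test called 0, with 2 higher and 1 lower, against 0% and 15.4% of all genes. These 5 of 34 members are no larger a share than the 15.4% of all genes. Those higher on average were Psmc3ip, with 161, 172, 212 and 235 (log2 difference 0.60 ± 0.19), Syce2 (0.70 ± 0.26) and Rec114 (0.43 ± 0.19). Those lower on average were Stag3, with 25.9, 48.9, 49.4 and 53.4 (-0.56 ± 0.22), and Mlh3 (-0.68 ± 0.33).

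**Figure D3:**
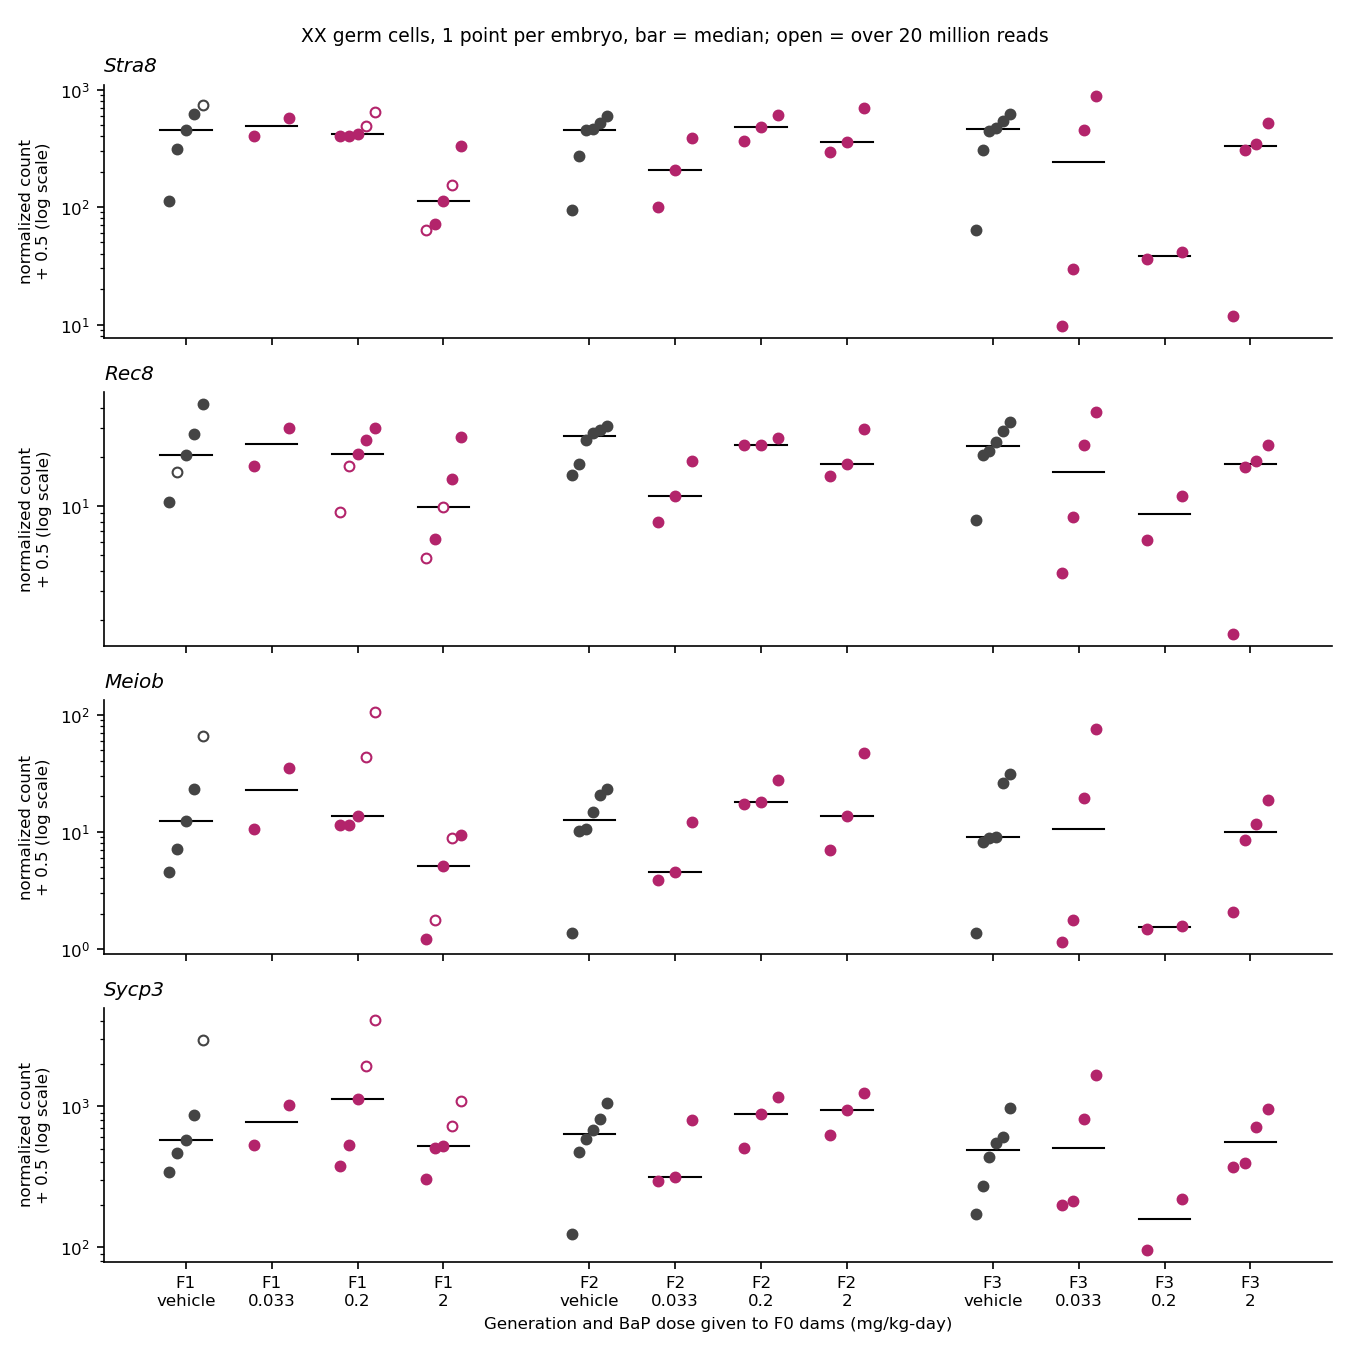
Normalized count plus 0.5 (log scale) of Stra8, Rec8, Meiob and Sycp3 in each of the 48 females by generation and dose (mg/kg-day), with a bar at the median and open points for libraries over 20000000 reads. In each vehicle group 1 female has low Stra8 (112, 93.0 and 62.9), with Meiob in the range of vehicle males in F2 and F3. The F3 groups at 0.033 and 2 mg/kg-day hold embryos with Stra8 at 9.12 and 11.4.

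In F2 females, the median member difference was negative at the lowest dose and positive at the higher doses, but embryos of a group differed. At 0.033 mg/kg-day limma called 0 members, with 2 lower at an unadjusted p under 0.05 (Rec8, log2 difference -0.98 ± 0.38, and Prdm9, -0.96 ± 0.42), and edgeR's quasi-likelihood test called 0, with 3. Rec8 was at 7.47, 10.95 and 18.5 in these 3 embryos. At 0.2 mg/kg-day, 33 of 34 members had higher averages (median log2 difference 0.42). There limma called 0 members, with 2 higher at an unadjusted p under 0.05 (Dmc1, 0.54 ± 0.26, and Msh5, 0.63 ± 0.30), and edgeR's quasi-likelihood test called 0, with 1. At 2 mg/kg-day limma called 0, with 0 at an unadjusted p under 0.05, as by edgeR's quasi-likelihood test, and the median log2 difference was 0.35. Female D1669.5 of that group lay above every vehicle female in 25 of 35 members, against 16.2% of all genes. D4028.2 lay below the vehicle median in 28, against 54.3%, and below every vehicle female in 8, against 16.6%. In these comparisons 0% of all genes were called, and 3.39%, 2.42% and 4.61% had an unadjusted p under 0.05.

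Erythroid genes (5 of 6, Hba-a1 most abundant) were high in F2 females at 0.033 mg/kg-day, with a median sum of 336 against 1.16 in F2 vehicle females. Their part in the members' values was not tested.

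In XY germ cells, no member passed at any dose. In F1 males limma called 0 members at each dose, with 0, 0 and 1 at an unadjusted p under 0.05 from the lowest to the highest dose (Dmc1 at 2 mg/kg-day, log2 difference -0.52 ± 0.26), and edgeR's quasi-likelihood test called 0, with 0, 1 and 0. Without the deep libraries limma called 0, with 1, 0 and 0. Among all genes 0% were called, and 6.34%, 1.17% and 1.75% had an unadjusted p under 0.05. In F2 males limma called 0 members at each dose, with 0, 4 and 0 at an unadjusted p under 0.05, and edgeR's quasi-likelihood test called 0, with 0, 2 and 1. Of all genes 0%, 0.145% and 0% were called, and 1.57%, 9.58% and 3.71% had an unadjusted p under 0.05. The 4 of 34 members at 0.2 mg/kg-day in F2 males, a share near the 9.58% of all genes, were higher on average: Rec8 (0.95 ± 0.38), Sycp1 (0.96 ± 0.42), Tex11 (0.85 ± 0.41) and Shcbp1l (1.17 ± 0.40). Even so, Rec8 stood at 1.51, 1.64 and 2.86 in these males, below the lowest vehicle female at 7.72. In the same comparison Ddx4 differed by 0.56 ± 0.24, Dazl by 0.39 ± 0.18, Mael by 0.85 ± 0.25, Nanos2 by 1.91 ± 0.53, Stra8 by 1.01 ± 0.53 and Pou5f1 by 0.02 ± 0.28, none passing by limma. Sertoli genes (5 of 5, Cst9 most abundant) summed to a median of 360.3 (from 30.5 to 373) against 724 (from 348 to 852) in F2 vehicle males, and their part was not tested.

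In F3 males limma called 0 members at each dose, with 0 at an unadjusted p under 0.05 at each, as did edgeR's quasi-likelihood test. Over all genes 0% were called, and 3.06%, 10.6% and 0.883% had an unadjusted p under 0.05. The male D1390.5, whose profile over all genes lay about as near to vehicle females as to vehicle males, lay below every F3 vehicle male in 5 of 35 members and above every one in 5, against 16.9% and 13.7% of all genes. Its Rec8 was at 3.16 and its Sycp3 at 216, within the range of all vehicle males, while its Stra8 and Nanos2 lay outside that of F3 vehicle males. Sertoli genes (5 of 5, Cst9 most abundant) had a median sum of 193 in F3 males at 0.2 mg/kg-day and 587 in F3 vehicle males, and their part was not tested.

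Over all generations, the 12 females at 2 mg/kg-day were compared with the 17 vehicle females that the other doses share as controls. Limma called 1 member higher and 1 lower, against 1.36% of all genes called. At an unadjusted p under 0.05 there were 2 higher and 5 lower of 34, no larger a share than the 23.3% of all genes, and edgeR's quasi-likelihood test called 0, with 2 higher and 1 lower. Stag3 had lowest, median and highest values of 43.8, 57.1 and 87.6 in vehicle females, and was at 30.5, 37.1, 45.2, 47.8 and 51.1 in F1, 41.6, 52.7 and 72.7 in F2 and 25.9, 48.9, 49.4 and 53.4 in F3 females at 2 mg/kg-day. It fell (log2 difference -0.43 ± 0.12, limma adjusted p = 0.0481), with 11 of 12 below the vehicle median and 4 below every vehicle female. Psmc3ip had 94.1, 144 and 193 in vehicle females and was at 145, 159, 223, 234 and 235 in F1, 149, 159 and 183 in F2 and 161, 172, 212 and 235 in F3. It rose (log2 difference 0.41 ± 0.12, limma adjusted p = 0.0492), with 12 of 12 above the vehicle median.

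Those calls lay at the threshold, and neither passed with a pseudocount of 0.1, no filter, upper quartile scaling, a generation term (limma adjusted p = 0.0589 for Stag3 and 0.0593 for Psmc3ip, log2 differences -0.42 and 0.40) or edgeR's likelihood ratio test. They also did not pass with edgeR's quasi-likelihood test (adjusted p = 0.0848 for both, log2 differences -0.38 and 0.38) or without the deep libraries (limma adjusted p = 0.108 for Stag3 and 0.106 for Psmc3ip), and Psmc3ip did not pass without male D1390.5 (limma adjusted p = 0.0506). With only the compared groups in the fit, Syce2 also passed as higher (limma adjusted p = 0.0387, log2 difference 0.56). The remaining members at an unadjusted p under 0.05 were Syce2 (0.56 ± 0.20), Rec8 (-0.84 ± 0.31), Majin (-0.99 ± 0.38), Mlh3 (-0.49 ± 0.21) and Dmc1 (-0.41 ± 0.19). None of the 9 study-named members had one.

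At the lower doses over all generations, limma called 0 members in females, with 1 at 0.033 mg/kg-day (Stag3, log2 difference -0.26 ± 0.13) and 0 at 0.2 at an unadjusted p under 0.05, and edgeR's quasi-likelihood test called 0, with 0 and 2. Of all genes 0% were called, and 2.08% and 1.05% had an unadjusted p under 0.05. In males limma called 0 at each dose, with 0 at an unadjusted p under 0.05, and edgeR's quasi-likelihood test called 0, with 0, 1 and 2 from the lowest to the highest dose. There 0% of all genes were called, and 4.67%, 3.36% and 3.91% had an unadjusted p under 0.05.

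Whether exposure acted differently on the sexes was tested as an interaction within each generation, and limma called 0 members in any of the 9 tests. In F1, 0, 0 and 3 members had an unadjusted p under 0.05 from the lowest to the highest dose (Smc1b, -0.96 ± 0.38, Syce1, -0.74 ± 0.31, and Majin, -1.61 ± 0.75, female minus male), with 0, 1 and 5 by edgeR's quasi-likelihood test, which called 0. Of all genes 0% were called, and 1.36%, 0.902% and 4.37% had an unadjusted p under 0.05. In F2 the limma counts were 2 (Rec8, -1.68 ± 0.54, and Majin, -1.82 ± 0.70), 0 and 1 (Mei1, -1.13 ± 0.54), with 2, 0 and 1 by edgeR, against 0% called and 2.97%, 4.91% and 2.51% of all genes. In F3 they were 0, 3 (Syce3, -1.51 ± 0.69, Meiob, -2.75 ± 1.26, and Terb2, -1.56 ± 0.70) and 2 (Stag3, -0.75 ± 0.32, and Psmc3ip, 0.61 ± 0.28), with 0, 2 and 0 by edgeR, against 0% called and 1.54%, 3.81% and 5.32% of all genes.

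Other genes of meiosis, a list of 46, gave the members a setting. Of these, 6 were absent from the table (Meiosin, Ankrd31, Shoc1, Rnf212, Rnf212b and Speedya), Meikin lay under the minimum mean, and 39 were tested. In vehicle embryos 23 were higher in females and 3 lower by limma, against 28.6% and 27.9% of all genes tested. Meioc, which with Ythdc2 lets cells leave the mitotic programme, averaged 81.5 in females and 2.78 in males (log2 difference 4.47 ± 0.41, limma adjusted p = 1.80e-17, 16 of 17 females above every male). Kash5, which links telomeres to dynein, averaged 2.31 and 0.473 (1.50 ± 0.18), Fkbp6, a piRNA pathway co-chaperone, 662 and 409 (0.73 ± 0.09), Ccnb1ip1, a crossover regulator, 38.6 and 10.1 (1.74 ± 0.23), and Atr, a damage checkpoint kinase, 70.4 and 38.03 (0.89 ± 0.14). The lower ones were Mus81 (-0.92 ± 0.19), a nuclease of a second crossover route, Cdk2 (-0.45 ± 0.10) and Sgo2a (-0.41 ± 0.12), which protects centromeric cohesin.

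With exposure, limma called 0 of the 39 in every dose comparison. In F1 females at 2 mg/kg-day 9 were lower at an unadjusted p under 0.05 by limma and 10 by edgeR's quasi-likelihood test, which called 0, where 5.76% of all genes were lower by limma. The median log2 difference of the list was -0.40 there, with 36 of 39 negative, beside the members' median of -0.61. In F3 females at 0.2 mg/kg-day 4 of the list were higher and 4 lower at an unadjusted p under 0.05 by limma, against 12.8% of all genes in either direction. The list's median was -0.10 there and the members' median -0.96.

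Promoters were searched for motifs in all members with an entry, whether or not they differed between the sexes, and 2 that were higher in XX cells are shown. In the RefSeq promoter table (GRCm38.p6), 29 of the 35 members had an entry, and the 250 bases before the start were searched on both strands. Of these windows 18 overlap the span of the gene as annotated, which reaches further upstream than the start listed, and 11 lie outside it. CACGTG, the E-box read by MGA and MAX in the complex that silences germline genes in other tissues, was in 6 members (20.7%), 4 of them with windows outside the span (those of Rec114 and Stag3 lie within it), and in 6.05% of all 27025 promoters of this length. TCCCGC, a core E2F motif, was in 14 members (48.3%), 7 of them with windows outside the span, and 16.9% of all promoters. CNCCTCAG, a motif known for the partners Stra8 and Meiosin, was in 2 members (6.9%) and 6.39%. The members' windows had a median GC content of 58.0% and a CpG observed over expected ratio of 0.671, against 52.0% and 0.378 for all promoters, so composition differed too. A match describes letters in the window and says nothing of binding. The windows of Hormad1 (chr3:95559427-95559676, plus strand) and Sycp1 (chr3:102936101-102936350, minus strand), an axis gene and the transverse filament gene, are given 5′ to 3′ as examples that hold the E-box, with E-box and E2F letters in capitals.
Hormad1: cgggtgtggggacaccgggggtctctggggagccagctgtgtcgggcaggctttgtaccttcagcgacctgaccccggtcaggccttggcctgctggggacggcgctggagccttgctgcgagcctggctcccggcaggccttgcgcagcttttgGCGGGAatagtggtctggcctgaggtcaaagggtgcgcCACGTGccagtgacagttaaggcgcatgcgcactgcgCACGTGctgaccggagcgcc
Sycp1: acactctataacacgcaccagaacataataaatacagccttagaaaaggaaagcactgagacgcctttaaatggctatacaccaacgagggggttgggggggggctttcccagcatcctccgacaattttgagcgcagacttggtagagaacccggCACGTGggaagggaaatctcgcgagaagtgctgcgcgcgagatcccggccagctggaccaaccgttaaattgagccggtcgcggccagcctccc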

How the data were processed

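The deposited table holds normalized counts of RNA-seq signal. The authors made oligo(dT) cDNA with the SMARTer Ultra Low Input kit, without strand information, and read paired ends on a NextSeq 500. They trimmed reads with Trim Galore, aligned them to mm10 with STAR, counted exons with Rsubread and divided the counts by TMM-scaled library sizes with edgeR (versions not given). Whole reads were recovered from the smallest step of each embryo, within 0.05 of a whole number, in 99 embryos. F3 2 mg/kg-day male D4190.1 and F3 vehicle female D1388.3 were left out of the edgeR tests only. Reads counted in the table's genes ranged from 5004382 to 87240533, and 1 read is worth a median of 0.124, which sets the precision of low values.

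Members and lists were chosen with earlier results of these data known. Log2 of the value plus 0.5 was fitted for all genes with a mean of at least 0.5 by limma 3.58.1 (moderated test with a mean trend, Benjamini-Hochberg adjustment, threshold 0.05, two-sided) in R 4.3.3. Each generation was fitted with its 8 sex and dose groups, all generations with 8 groups, and the vehicle sex differences between generations with all 24 groups. Interactions compared dose effects between the sexes. Sex, dose and generation came from the labels. The alternatives were pseudocounts of 0.1 and 1, no filter and a minimum mean of 5. Quasi-likelihood and likelihood ratio tests of edgeR 4.0.16 were run on recovered reads. Further alternatives were upper quartile scaling, only the compared groups, dam as a random or fixed term, averaged littermates, a generation term and no deep F1 libraries. Each embryo was also left out, but only in the fits within a generation. Over all generations the only single embryo left out was D1390.5. Chosen after seeing the data were the fits over all generations without the deep libraries or without D1390.5, and depth class as a term. Scripts were tested on simulated data.

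Members with full values were those with the highest, median and lowest vehicle female level in each role, those called in an exposure comparison and the 9 named by the study. Up to 5 other meiotic genes in each direction were named by smallest p in the vehicle sex comparison. Other members named at an unadjusted p under 0.05 were chosen after their values were seen. The dam in an embryo's name marks a shared litter. In F2 and F3 the labels do not give the F0 dam, so embryos of a group may descend from the same one. The tests could not take this into account. Deviations from group means correlated over 0.1 in 11 of 15 vehicle sister and brother pairs (median r 0.242, from -0.207 to 0.435). Exon lengths and overlaps came from GENCODE vM21 annotation of GRCm38, promoters from RefSeq. Python 3.11.15, pandas 2.3.3, NumPy 2.4.6 and matplotlib 3.10.9 were used.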

Additional observations from a re-analysis of the deposited data

Results flagged for a closer look

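Among 244 groups of member values (vehicle groups and F1 females at 2 mg/kg-day, with 5 or 6 embryos each), 27 held an embryo whose gap to the nearest of the others was large for the range of its group. How many such groups chance would give was not measured, and members of 1 embryo are not independent of each other. F1 vehicle female C4232.9, a deep library, was highest for Sycp3 (2954), Hormad1 (1169.7), Tex12 (648), Mei4 (19.5), Spata22 (7.80) and Terb2 (82.9). F3 vehicle male D3402.3 was highest for Smc1b (309), Sycp3 (489), Hormad1 (449.8), Tex12 (132), Mei4 (13.5), Terb2 (16.7) and Ccnb3 (0.878).

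Single values stood out in other embryos. F1 vehicle male C4232.2, also a deep library, was highest for Tex12 (114) and Spata22 (1.01), and C4321.1 for Stag3 (52.7). F1 2 mg/kg-day female D2587.1 was highest for Sycp2 (17.1) and Majin (5.58). Among F2 vehicle females C4988.3 was highest for Stag3 (75.2) and Tex15 (149.7), C4992.1 was highest for Trip13 (93.6), and D3133.2 was lowest for Hsf2bp (143). Among F2 vehicle males D2996.2 was highest for Rec8 (2.74), D3001.1 for Spata22 (0.0968, which is 1 read against 0 in the other 5) and C4988.2 for Ccnb3 (1.12). Among F3 vehicle males D1388.1 was lowest for Psmc3ip (113) and D3651.1 highest for Spata22 (0.427).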

How the results depend on the processing

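Of 547 counts over the members recomputed under other settings, 535 stayed within 1.5 times of the reported count, and of 1191 recomputed with 1 embryo left out, 1178 did. Many of these counts were 0 as reported and stayed 0, so the totals do not measure how stable the counts above 0 were. Of 827 single differences under other settings 798 kept their direction and their side of the threshold, and 0 changed direction. Members lower in vehicle females over all generations numbered 1, and 2 by both edgeR tests, with upper quartile scaling and with the replicate block of dam as a random effect. The members called over all generations in females at 2 mg/kg-day numbered 2, and 0 with a pseudocount of 0.1, no filter, either edgeR test, upper quartile scaling, a generation term or no deep F1 libraries, and 1 without D1390.5. Members lower at an unadjusted p under 0.05 in F1 females at 2 mg/kg-day numbered 13, and 3 without the deep libraries. With 1 embryo left out that count ran from 6 to 18 and the count of members called from 0 to 1. In F3 females at 0.2 mg/kg-day the count of lower members ran from 10 to 23 with 1 vehicle female left out. With an exposed embryo left out a group of 1 remained, and its count is not given. Members lower in vehicle females ran from 0 to 1 in F2 and from 0 to 1 in F3. The cause was not tested. Among members checked singly, the dam block changed only the calls of Trip13, Sycp2 and Syce2 between vehicle sexes over all generations. Sex calls within a generation were checked as counts, not member by member. Groups of 2 or 3 embryos and values near 1 read limit what could be detected.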
